A study of Mus musculus with 4 samples.

Results

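The nuclear genes for the subunits of the oxidative phosphorylation machinery were followed at 2 ages in mouse sublingual glands, salivary glands that secrete mucus. Members were the symbols of the count table that begin with Ndufa, Ndufb, Ndufc, Ndufs or Ndufv, the symbols Sdha to Sdhd, and those that begin with Uqcr, Cox4 to Cox8 or Atp5, without the Ndufaf assembly factors. The rule uses symbols and no measured value, and it took 85 of 24411 symbols. By complex these were 38 symbols of complex I, 4 of complex II, 8 of complex III, 18 of complex IV and 17 of complex V. RNA was sequenced from 4 libraries, all from females on a C57BL/6J background with the genotype Nkx2.3-/-. Replicates 1 and 2 were taken at 8 weeks of age and replicates 3 and 4 at 32 weeks. Both ages carry the knockout, so the one comparison is age within knockout glands, and no gland with an intact gene is analysed here.

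Complexes I and II, the NADH and succinate dehydrogenases, pass electrons to ubiquinone, complex III passes them on to cytochrome c, and complex IV hands them to oxygen. Complexes I, III and IV pump protons across the inner mitochondrial membrane, and complex V, the ATP synthase, uses the returning protons to make ATP. Complex II alone is built wholly from nuclear genes, and the mitochondrially encoded subunits of the other complexes are not analysed here. Salivary glands spend ATP on secretion in their acini and on ion transport in their striated ducts, whose cells are rich in mitochondria. Several nuclear genes of the chain are known targets of the transcription factors NRF1, GABPA (of the ETS family) and YY1.

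Promoter sequences of 5 members are shown because they carry the letters of these 3 factors' core motifs. Windows came from RefSeq on GRCm38.p6, each running from 250 bases before to 50 after an annotated gene start, and 70 of the 85 members matched 76 windows. Each line gives the 250 bases before the start, 5′ to 3′ on the gene's strand, and capitals mark matches on either strand. The windows are Sdha at chr13:74350241-74350490, Sdhd at chr9:50603850-50604099, Atp5k at chr5:108434400-108434649, Uqcr11 at chr10:80406822-80407071 and Atp5j at chr16:84834977-84835226, all on the minus strand.
Sdha: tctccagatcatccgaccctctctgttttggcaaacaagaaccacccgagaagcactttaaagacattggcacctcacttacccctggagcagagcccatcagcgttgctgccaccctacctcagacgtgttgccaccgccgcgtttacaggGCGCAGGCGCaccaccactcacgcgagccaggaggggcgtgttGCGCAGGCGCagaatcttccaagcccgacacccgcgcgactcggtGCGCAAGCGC
Sdhd: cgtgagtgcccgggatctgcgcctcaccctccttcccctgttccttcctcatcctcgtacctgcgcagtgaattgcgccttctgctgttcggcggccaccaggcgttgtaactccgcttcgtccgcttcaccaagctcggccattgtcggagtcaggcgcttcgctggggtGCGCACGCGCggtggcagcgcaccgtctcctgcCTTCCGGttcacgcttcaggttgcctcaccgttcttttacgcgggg
Atp5k: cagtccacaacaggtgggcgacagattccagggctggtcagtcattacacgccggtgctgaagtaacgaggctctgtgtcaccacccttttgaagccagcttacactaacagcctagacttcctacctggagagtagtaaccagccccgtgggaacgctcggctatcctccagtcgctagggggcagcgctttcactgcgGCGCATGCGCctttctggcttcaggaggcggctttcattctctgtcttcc
Uqcr11: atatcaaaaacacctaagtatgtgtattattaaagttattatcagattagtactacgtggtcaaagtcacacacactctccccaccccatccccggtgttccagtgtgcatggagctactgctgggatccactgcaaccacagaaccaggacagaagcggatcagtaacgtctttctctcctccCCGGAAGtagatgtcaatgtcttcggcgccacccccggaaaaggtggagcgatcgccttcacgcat
Atp5j: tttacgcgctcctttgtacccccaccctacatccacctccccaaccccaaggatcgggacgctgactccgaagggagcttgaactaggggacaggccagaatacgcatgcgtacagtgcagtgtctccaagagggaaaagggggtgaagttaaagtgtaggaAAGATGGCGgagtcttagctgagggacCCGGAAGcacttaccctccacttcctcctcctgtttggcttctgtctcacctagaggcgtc

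The Sdha window matches the NRF1 motif 3 times, beginning at positions -98, -55 and -10 from the gene start. The motif is the capitals of the Sdha line, with the sixth base free. Sdhd has the NRF1 letters at -79 and the ETS letters CCGGAAG at -46, there on the opposite strand. Atp5k has the NRF1 letters at -50, and Uqcr11 has the ETS letters at -66. Atp5j has the YY1 letters AAGATGGCG at -88 and the ETS letters at -61. The window of another annotated Atp5j start, with its upstream bases at chr16:84835626-84835875, has none of the 3 motifs. Over the whole windows of the members, the NRF1 letters occurred in 18 of 76 windows (23.7%), against 6.38% of the 21263 windows of protein-coding genes. The ETS letters occurred in 16 member windows (21.1%, against 11.6%) and the YY1 letters in 9 (11.8%, against 1.83%). Any of the 3 motifs, which can lie in the same window, was found in 37 member windows (48.7%, against 17.9%). A match describes these letters and is no evidence that a factor binds there.

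Members with and without a motif had medians close to each other. The median log2 fold change was 0.11 for the 16 tested members with the NRF1 letters and 0.13 for the 51 without. It was 0.16 for the 16 with the ETS letters and 0.12 for the 51 without, and 0.11 for the 8 with the YY1 letters against 0.15 for the 59 without.

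Library totals ran from 12925869 to 16484772 counts. The knocked-out gene, Nkx2-3, still had 31 and 28 counts at 8 weeks and 21 and 29 at 32 weeks (1.45 to 2.29 CPM, counts scaled to library size), which checks the labels only if the deleted stretch is the one that was counted. The gland's identity was clear in its secretory genes: the gland mucin Muc19 stood between 12020 and 20280 CPM. Muscle markers were low, with Acta1 at 1.92, 3.45, 2.07 and 5.53 CPM and Ckm at no more than 0.345 CPM in replicates 1 to 4. The brown fat gene Ucp1 had 0 counts in every library. At 8 weeks, replicate 2 stood apart, and of all genes tested 34.7% were highest there and 35.3% lowest. Of 11 tested striated duct markers, 7 (63.6%) were highest there and 2 were lowest. Among them, Fxyd2 stood at 102, 365, 116 and 112 CPM in replicates 1 to 4. Of 8 tested mucous acinar markers, 7 were lowest there. The secretory-cell gene Agr2 differed most of these 8 (57.2, 5.59, 49.6 and 49.7 CPM). In bulk tissue, fewer cells of a type and less RNA per cell cannot be told apart.

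The members took a steady share of the counts, 1.22%, 1.13%, 1.17% and 1.24% in replicates 1 to 4. Summed over all members, CPM (scaled by trimmed-mean factors, TMM) was 11630, 11160, 13280 and 11650. Between genes, levels are compared as CPM per kilobase of transcript. The median level over tested members was highest in complex III (478 CPM per kilobase), followed by complex IV (242), complex V (198) and complex I (116), and lowest in complex II (49.1). Median levels were higher for accessory than for core subunits in complex I, and for small subunits than for core and Rieske proteins in complex III. Accessory stands here for every complex I symbol outside the core, which includes Ndufa4 and its relative Ndufa4l2. The accessory subunits of complex I had a median of 124 CPM per kilobase against 44.8 for its 7 core subunits, and the small subunits of complex III had 540 against 54.3 for the core proteins and the Rieske protein.

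No member passed the test for age. Of the 85 members, 80 had enough counts to be tested, and none reached an adjusted p of 0.05 in edgeR's quasi-likelihood test with Benjamini-Hochberg adjustment over 12810 genes. The background was the same, since edgeR called 0.0% of all genes tested. The smallest adjusted p of a member was 0.999. At an unadjusted p under 0.05, 1 member and 1.36% of all genes passed in edgeR. DESeq2 called none of 83 tested members and 0.0166% of 18104 genes. No member, and 0.492% of all genes, had an unadjusted p under 0.05 in DESeq2. Limma-voom called none, and 1 member and 1.38% of all genes had an unadjusted p under 0.05 there. Log2 fold changes (32 weeks over 8 weeks) ran from -1.18 to 0.39 over the members, with a median of 0.12 beside -0.01 over all genes tested.

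Estimates leaned to one side without passing the test. They were above 0 for 58 of 80 members (72.5%), against 48.3% of all genes. Cytosolic ribosomal protein genes (67 of 73, 91.8%) and mitochondrial ribosomal protein genes (55 of 77, 71.4%) shared the lean. Tricarboxylic acid cycle genes (1 of 14) and glycolysis genes (1 of 15) leaned the other way. In 28 members (35.0%, against 14.4% of all genes) both 32-week libraries lay above both 8-week libraries, and in 2 members, Cox8b and Ndufs1, both lay below (2.5%, against 14.2%). Higher at 32 weeks without overlap were also 34.2% of cytosolic and 28.6% of mitochondrial ribosomal protein genes. No tricarboxylic acid cycle or glycolysis gene was. The lean of the members rested on 32-week replicate 3. Without that library, 40 of 81 tested members had estimates above 0 and the median was -0.00063.

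**Figure D1:**
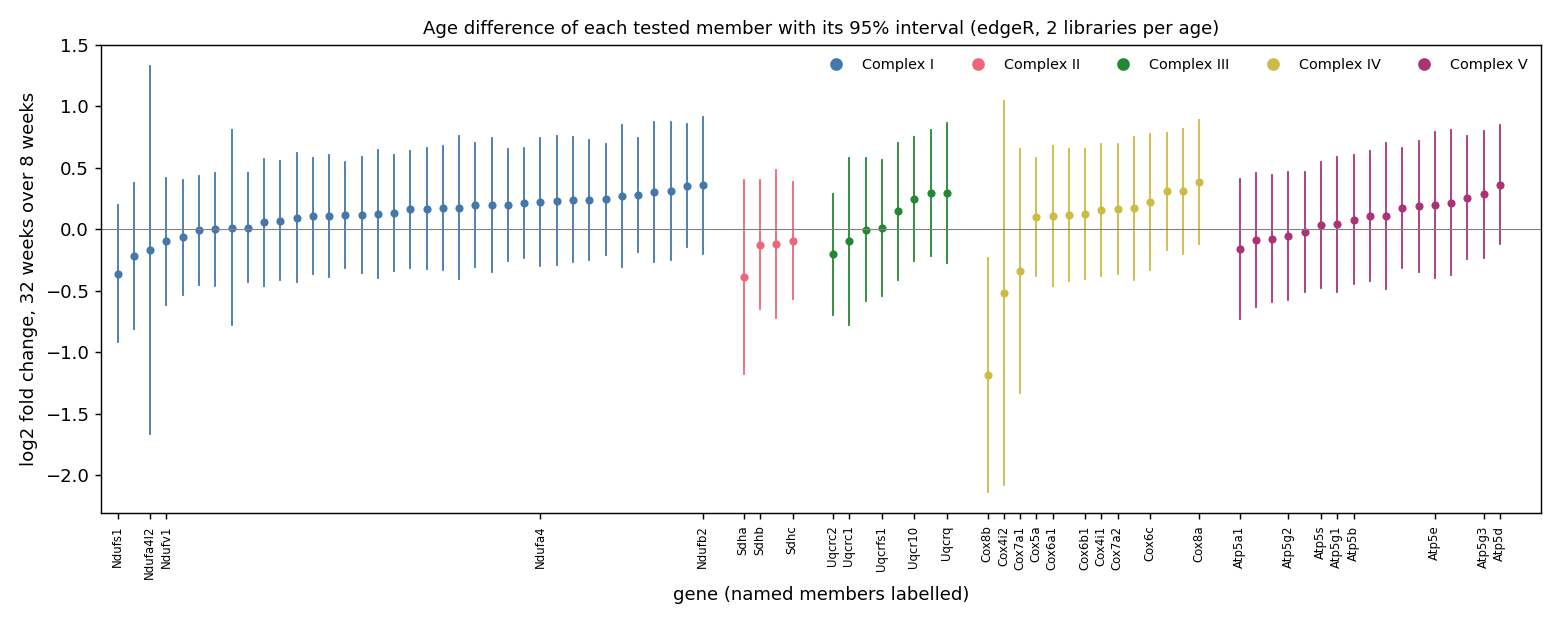
Log2 fold change (32 weeks over 8 weeks) of each of the 80 tested members with its 95% interval from edgeR, 2 libraries per age, by complex, with part of the genes labelled. Every estimate but that of Cox8b lies between -0.52 and 0.39, and Cox8b is at -1.18.

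Complex I takes electrons from NADH. Of its 37 tested members, 30 had estimates above 0 (median 0.16). In 16 (43.2%, against 14.4% of all genes) the 32-week libraries were the higher ones without overlap. The signs differed by role: 27 of 30 accessory subunits but 3 of 7 core subunits had estimates above 0, with medians of 0.19 and -0.01. That difference between accessory and core subunits was not tested, and Ndufa4 and Ndufa4l2 are counted among the accessory ones.

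Ndufs1, the large iron-sulfur subunit, stood at 30.8 and 46.7 CPM in the 8-week libraries and at 30.1 and 30.1 CPM in the 32-week libraries. One 8-week library, replicate 2, was high and the other lay close to the 32-week pair (log2 fold change -0.36, SE 0.24, 95% interval -0.92 to 0.20, and -0.024 without replicate 2). Ndufv1, which binds NADH and the flavin, was likewise highest in replicate 2, with 65.3 and 88.7 CPM in the 8-week libraries against 72.6 and 71.3 CPM in the 32-week libraries.

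Ndufb2, an accessory subunit in the membrane arm, had the largest positive estimate in complex I, with 59.0 and 39.4 CPM in the 8-week libraries and 63.9 and 62.2 CPM in the 32-week libraries. Its ages did not overlap, and its estimate was 0.36 (SE 0.24, 95% interval -0.20 to 0.92, and 0.10 without replicate 2). Here replicate 2 was the low library. Ndufa5, an accessory subunit of the matrix arm, varied most among members of at least 10 CPM, at 89.4, 42.3, 72.1 and 60.8 CPM in replicates 1 to 4. Its highest library was 2.12 times its lowest, and the 2 ages overlapped, with an estimate of 0.01 (SE 0.34).

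Ndufa4 had the highest level of the complex I symbols, 553 CPM per kilobase, and is known today as a subunit of complex IV. It stood at 250.5 and 252.0 CPM in the 8-week libraries and 313 and 273 CPM in the 32-week libraries (log2 fold change 0.22, SE 0.22). Its hypoxia-inducible relative Ndufa4l2 was nearly silent, with 11 and 23 counts at 8 weeks and 24 and 9 at 32 weeks. Ndufs5, a small accessory subunit in the intermembrane space (NCBIM37 chr4:123389953-123395445, minus strand), was listed at 0 counts in all 4 libraries. Every other complex I symbol had counts. How multiply mapped reads were treated is unknown, and Sco2, Pet117 and the haemoglobin genes Hba-a1 and Hbb-bs were also listed at 0 in every library, so these values are read as listed and give no upper limit on expression.

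Complex II, succinate dehydrogenase, also belongs to the tricarboxylic acid cycle. All 4 members had estimates below 0 (median -0.12), and in all 4 the highest library was 8-week replicate 2. Sdha, the flavoprotein that oxidises succinate (chr13:74459702-74487728 on NCBIM37, minus strand), stood at 74.2 and 155.9 CPM in the 8-week libraries and 85.2 and 90.8 CPM in the 32-week libraries. The other 8-week library was the lowest of the 4, so the ages overlapped (log2 fold change -0.39, SE 0.34, 95% interval -1.18 to 0.40). Without replicate 2 the estimate for Sdha was 0.25 and the median over complex II was 0.13.

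Sdhb, the iron-sulfur subunit, had 173.9 and 206.0 CPM in the 8-week libraries and 188.7 and 159.7 CPM in the 32-week libraries. Sdhd, a membrane anchor, had 65.5 and 104 CPM against 80.5 and 75.6 CPM. Sdhc, the other anchor, moved least, with 97.5 and 108 CPM against 103 and 89.98 CPM. In each of the 3, replicate 2 was the highest library and the ages overlapped. Their estimates were -0.12 for Sdhb and Sdhd (SE 0.22 and 0.26) and -0.09 for Sdhc (SE 0.20).

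Complex III moves electrons from ubiquinol to cytochrome c. Of its 8 members 5 had estimates above 0 (median 0.08). Uqcrc1, a core protein, was high in replicate 2, with 93.6 and 163 CPM in the 8-week libraries and 127 and 113 CPM in the 32-week libraries. Uqcrc2, the other core protein, had 89.95 and 105 CPM against 91.9 and 77.8 CPM, and its estimate was the most negative of the complex (-0.20, SE 0.21). Uqcrfs1, the Rieske iron-sulfur protein, went the other way, lowest in replicate 2: 86.9 and 60.5 CPM in the 8-week libraries, 69.5 and 79.1 CPM in the 32-week libraries.

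Among the small subunits, Uqcrq stood at 182 and 149 CPM in the 8-week libraries and 232 and 175 CPM in the 32-week libraries, overlapping between ages (0.30, SE 0.24). Uqcr10, the subunit with the highest level per kilobase in the complex (602), had 237 and 241 CPM in the 8-week libraries and 293 and 273 CPM in the 32-week libraries. Uqcr11 had 235 and 206 CPM against 277 and 265 CPM. In both, the 32-week libraries were above the 8-week ones, and their estimates were 0.25 and 0.30 (SE 0.22 each).

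Complex IV, cytochrome c oxidase, has subunits with tissue-specific isoforms, and these account for its untested members. Of its 14 tested members 11 had estimates above 0 (median 0.14). Cox4i1, the ubiquitous form of its largest nuclear subunit, had 347 and 391 CPM in the 8-week libraries and 417 and 406 CPM in the 32-week libraries, with no overlap (0.16, SE 0.23). Cox5a, which contacts Cox4i1 on the matrix side, had 48.4 and 61.5 CPM against 60.5 and 57.1 CPM. Cox6c had the highest level of all members, 632 CPM per kilobase, with 324 and 263 CPM in the 8-week libraries and 357 and 327 CPM in the 32-week libraries. Cox8a, the ubiquitous form of the smallest subunit, had 179 and 157 CPM against 230 and 210 CPM, the largest positive estimate of all members (0.39, SE 0.22, 95% interval -0.12 to 0.89).

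Cox8b, the heart and muscle isoform of the same subunit (chr7:148084842-148086345 on NCBIM37, minus strand), ran opposite. It had 28 and 31 counts at 8 weeks and 15 and 14 at 32 weeks, or 2.07 and 2.14 CPM against 1.04 and 0.814 CPM. The ages did not overlap, the log2 fold change was -1.18 (SE 0.41, 95% interval -2.14 to -0.23), and the edgeR quasi-likelihood p was 0.0212 unadjusted and 0.999 after Benjamini-Hochberg adjustment. An unadjusted p under 0.05 with a lower level at 32 weeks was met by 0.585% of all genes. Of the muscle markers, Acta1 and Mylpf were the 2 of 12 listed genes with enough counts to test, and Mylpf had 5 and 13 counts at 8 weeks and 18 and 17 at 32 weeks. Acta1, with 26 and 50 counts against 30 and 95, overlapped between the ages. Among the untested muscle markers, Tnnt3 was lower at 32 weeks without overlap (3 and 2 counts against 0 and 1). Mb was higher in CPM without overlap (0 and 5 counts against 5 and 10), and the rest did not separate the ages. The muscle list summed to 3.47 and 5.87 CPM at the younger age and 4.77 and 7.79 CPM at the older. Cox8b is also known from brown fat, and the 9 adipocyte markers summed to 74.5 and 27.1 CPM against 30.4 and 40.4 CPM, with Ucp1 at 0. Fabp4 made up much of that sum, at 35.9 and 20.9 CPM against 29.7 and 30.8 CPM. Adipoq was lower at 32 weeks without overlap, with 40 and 9 counts against 1 and 4. Cidea (3 and 2 counts against 4 and 4) and Lep (0 and 0 against 1 and 2) were higher without overlap. Cfd (172 and 32 counts against 1 and 93) and Retn (32 and 7 against 1 and 10) overlapped. Car3 overlapped too, with 274 and 40 counts against 1 and 51, or 20.2 and 2.76 CPM against 0.0691 and 2.97 CPM. Its log2 fold change was -2.86 (edgeR p 0.0380 unadjusted, 0.999 after Benjamini-Hochberg adjustment), with a single count in replicate 3. The part of muscle and fat cells in the level of Cox8b was not tested.

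In each Cox family, and for Ndufa4 over Ndufa4l2, the ubiquitous form held nearly all of the signal per kilobase. Cox4i2, a lung isoform, took 0.119%, 0.329%, 0.185% and 0.107% of the Cox4 signal in replicates 1 to 4, from 6, 20, 12 and 8 counts. Cox7a1, the muscle form, took the largest minor share, 3.33%, 8.23%, 4.43% and 3.74%, with its peak in replicate 2 (53, 134, 89 and 74 counts). Cox8b took 1.71%, 2.01%, 0.675% and 0.580% of the Cox8 signal. Cox6a2, a muscle form, had 1, 2, 0 and 5 counts, and Cox6b2, a testis form, 7, 10, 10 and 8. Cox8c had 0 counts in every library and Cox7b2 had 1, 0, 0 and 3.

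The ubiquitous forms Cox6a1, Cox6b1 and Cox7a2 were abundant and overlapped between the ages. Cox6a1 had 253 and 284 CPM in the 8-week libraries and 327 and 251 CPM in the 32-week libraries, and Cox6b1 had 185 and 187 CPM against 226 and 179 CPM. Cox7a2 had 235 and 214 CPM against 275 and 229 CPM. In these 3 genes replicate 3 was the high library and replicate 4 lay within or below the 8-week range.

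**Figure D2:**
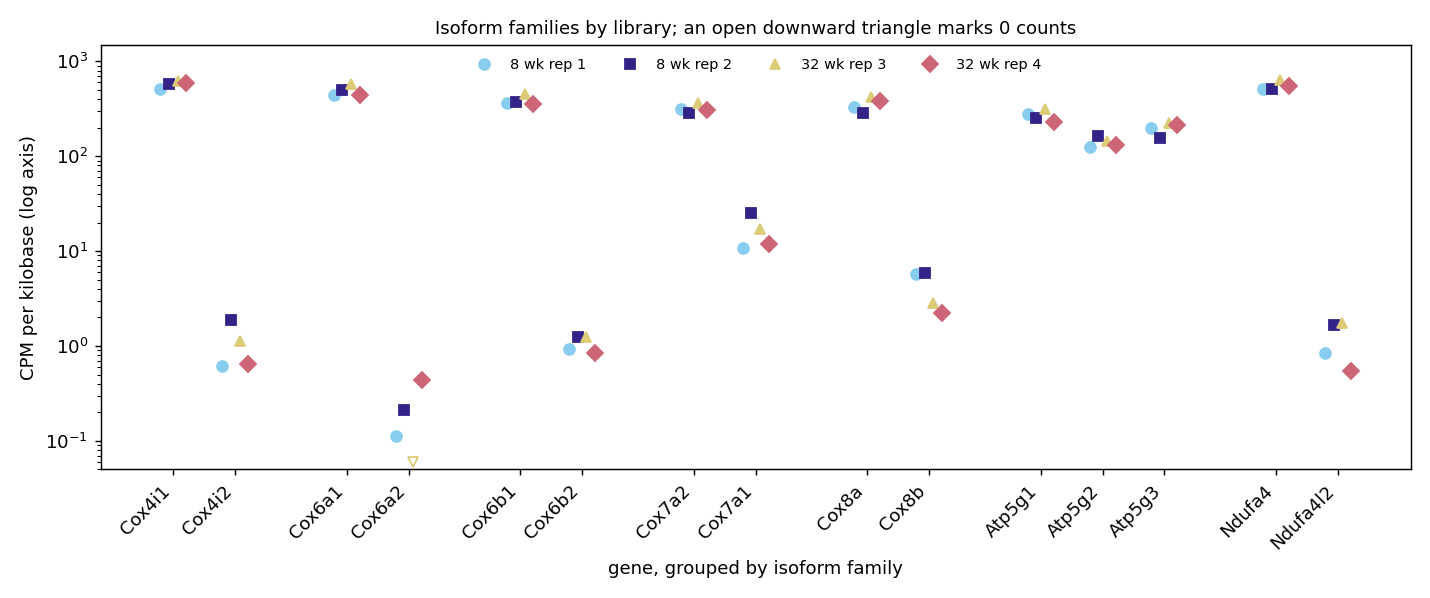
CPM per kilobase (log axis) of each isoform family in the 4 libraries, with open downward triangles for 0 counts. Cox4i1, Cox6a1, Cox6b1, Cox7a2, Cox8a and Ndufa4 lie above their tissue-restricted relatives in every library, while the 3 c-ring genes lie close together.

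Complex V, the ATP synthase, had 12 of 17 members with estimates above 0 (median 0.11). Atp5a1 and Atp5b form the catalytic head. Atp5a1 stood at 371 and 474 CPM in the 8-week libraries and 385 and 371 CPM in the 32-week libraries, high in replicate 2 (-0.16, SE 0.24). Atp5b was nearly level, with 333 and 357 CPM against 366 and 362 CPM, and did not overlap between the ages (0.08, SE 0.22). Atp5d, in the central stalk, had the largest positive estimate of the complex, 0.36 (SE 0.21, 95% interval -0.12 to 0.85), with 137 and 119 CPM in the 8-week libraries and 168 and 161 CPM in the 32-week libraries. Atp5e, its partner in the stalk and the member with the highest level per kilobase here (625), had 279 and 212 CPM against 313 and 248 CPM and overlapped.

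The c-ring genes Atp5g1, Atp5g2 and Atp5g3, which encode the same mature ring protein, were all expressed. Mean levels were 269 CPM per kilobase for Atp5g1, 198 for Atp5g3 and 141 for Atp5g2. Atp5g1 took 46.2%, 44.1%, 46.1% and 40.3% of their summed signal per kilobase in replicates 1 to 4, Atp5g3 took 33.3%, 27.3%, 32.5% and 37.0%, and Atp5g2 took 20.6%, 28.6%, 21.4% and 22.7%. Replicate 2 had the highest Atp5g2 share and the lowest Atp5g3 share. In CPM, Atp5g1 stood at 165.6 and 150.6 at 8 weeks and 187 and 138 at 32 weeks, Atp5g2 at 80.1 and 106 against 94.5 and 84.5, and Atp5g3 at 143 and 112 against 158 and 152. Atp5g3 alone of the 3 did not overlap (0.28, SE 0.22). Atp5s, a coupling factor outside the core enzyme, had the lowest level in the complex, at 8.41, 9.74, 9.61 and 9.02 CPM in replicates 1 to 4.

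The members also differed between libraries of the same age. A member's deviation is its log2 CPM in a library minus its mean over the 4 libraries. The median deviation over the 80 members was -0.02 and -0.11 in the 8-week replicates 1 and 2, and 0.18 and -0.05 in the 32-week replicates 3 and 4. Replicate 3 held the highest value of 57 members (71.25%, against 19.8% of all genes) and the lowest of none. Replicate 2 held the lowest value of 38 members (47.5%, against 35.3% of all genes) and the highest of 18 (22.5%, against 34.7%).

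**Figure D3:**
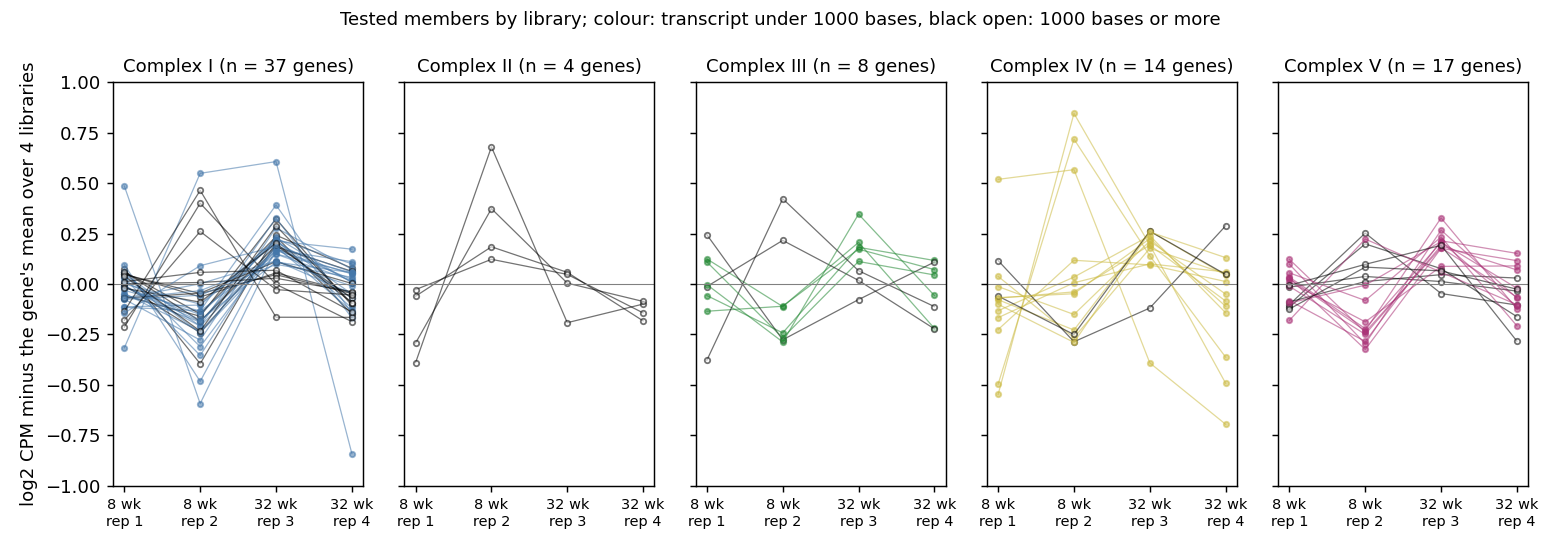
Deviation (log2 CPM minus the gene's mean over 4 libraries) of every tested member in each library, 1 panel per complex, 1 line per gene. All 4 complex II genes peak at 8-week replicate 2, whereas lines in the other complexes spread both ways there and lie mostly above 0 at 32-week replicate 3.

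Replicate 2 set some groups of members apart from others, a difference that was not tested. The 18 genes highest there were all 4 of complex II, both core proteins of complex III, Ndufs1, Ndufv1 and Ndufa9 of complex I, Cox5a and the minor isoforms Cox4i2, Cox7a1 and Cox8b of complex IV, and Atp5a1, Atp5c1, Atp5f1, Atp5g2 and Atp5s of complex V. Of the 7 core subunits of complex I, 2 were highest there and 5 in replicate 3 (median deviation 0.06 in replicate 2). The median deviations there were 0.28 for complex II and 0.22 for the core and Rieske proteins of complex III. They were -0.24 for the small subunits of complex III and -0.18 for the accessory subunits of complex I, of which 20 of 30 had their lowest value there. Ndufa9, an accessory subunit of the matrix arm, went with the first set, at 79.4, 122, 92.0 and 80.9 CPM in replicates 1 to 4. Ndufa6, another matrix-arm accessory subunit, went with the second, at 272, 209, 311 and 286 CPM.

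Other gene lists lay on both sides in replicate 2, where 34.7% of all genes tested were highest and 35.3% lowest. Of 14 tested tricarboxylic acid cycle genes, 13 had their highest value there (median deviation 0.28). Cs, citrate synthase, stood at 64.3, 89.6, 64.1 and 64.9 CPM in replicates 1 to 4. Of 15 glycolysis genes 13 were highest there (median 0.39), with Pkm at 126, 228, 147 and 134 CPM. Cytosolic ribosomal protein genes were lowest there in 68 of 73 cases (median -0.37) and mitochondrial ribosomal protein genes in 42 of 77 (median -0.11). The 20 mitochondrial import genes were lowest there in 13 cases. No list had a gene called by edgeR between the ages.

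Marker lists of several cell types also differed in replicate 2. The 11 tested striated duct markers had median deviations of -0.21, 0.47, -0.02 and -0.29 in replicates 1 to 4, and the 8 mucous acinar markers 0.21, -0.47, 0.23 and 0.15. Summed CPM over the striated duct list was 2497, 5254, 2732 and 1826. The mucous acinar sum did not follow its median, at 14470, 15240, 22770 and 18990, since Muc19 makes up most of it. All 5 tested B and plasma cell markers were lowest in replicate 2 (median deviation -1.39), with Jchain at 920, 73.7, 512 and 799 CPM in replicates 1 to 4. So were all 3 tested T and NK cell markers (-0.94) and 4 of 5 macrophage markers (-0.35). The 7 serous and demilune markers had medians of -0.52, 0.39, 0.60 and -0.49. The part of these cell types in the members' levels was not tested.

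**Figure D4:**
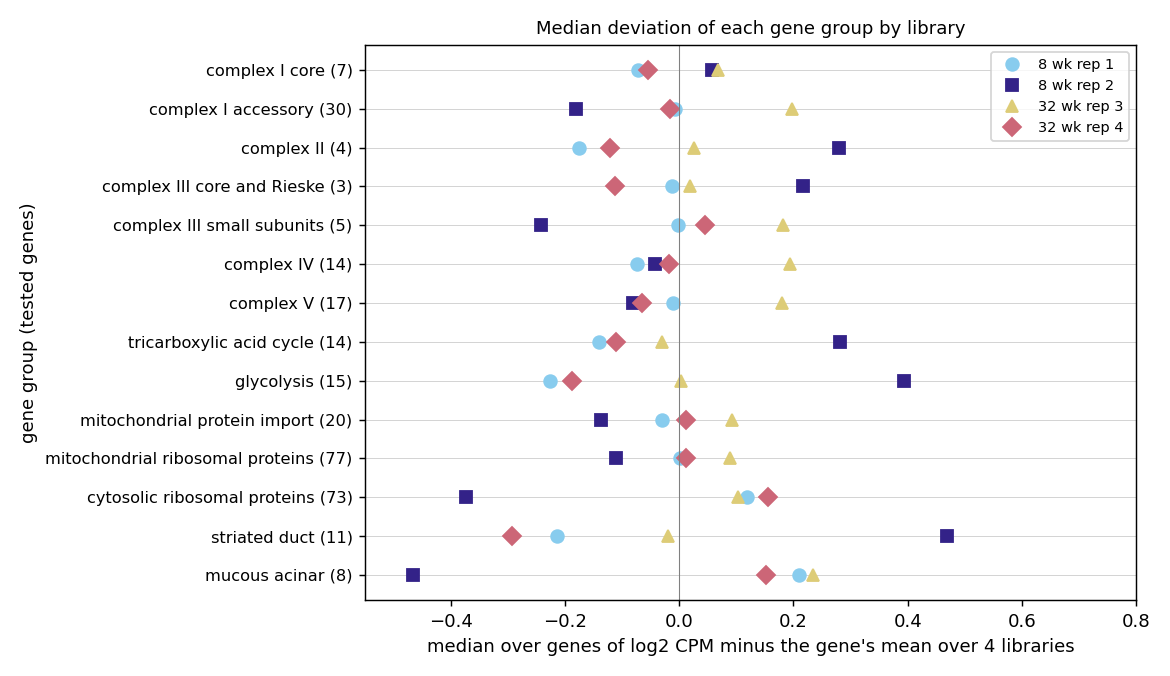
Median deviation (log2) of each gene group in the 4 libraries, with the number of tested genes in brackets. In 8-week replicate 2, complex II (0.28), the tricarboxylic acid cycle (0.28), glycolysis (0.39) and striated duct markers (0.47) lie to the right, and small complex III subunits (-0.24), ribosomal proteins (-0.37) and mucous acinar markers (-0.47) to the left.

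Transcript length moved with the same division. Of 50 tested members under 1000 bases, 44 had an estimate above 0 between the ages (median 0.17), and their median deviation was -0.18 in replicate 2 and 0.19 in replicate 3. For the 30 members of 1000 bases or more the figures were 14 genes, a median of -0.01, and deviations of 0.03 and 0.06. All 973 tested genes under 1000 bases showed a like lean, with 73.5% above 0 and a median of 0.15. Their deviations were -0.13 in replicate 2 and 0.12 in replicate 3. Of these genes 31.6% were higher at 32 weeks without overlap, as were 46.0% of the members under 1000 bases. At 1000 bases or more, the shares were 12.9% of all genes and 16.7% of the members. Across the 80 members, Spearman's correlation of length with deviation was -0.12, 0.38, -0.45 and -0.20 in replicates 1 to 4, over genes that share their libraries. Over 12187 genes it was 0.11, 0.03, -0.15 and -0.05. The part of length in the members' values was not tested.

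Scaling moved replicate 3 for the members and for all genes alike. Its TMM factor was 0.878, against 1.02 to 1.07 in the other 3 libraries. With library totals alone, the median deviation in replicate 3 was -0.01 for the members in place of 0.18, and -0.18 for all genes in place of 0.00052. The members thus lay 0.17 above all genes there with library totals and 0.18 above with TMM. With library totals 7 of 80 members (8.75%, against 4.25% of all genes) were highest in replicate 3, in place of 57. With the size factors of the RLE method 59 were, and with the 10 most abundant genes left out 58 were. The median age estimate with library totals alone was 0.02, beside a shift of the median over all genes to -0.10. The low position in replicate 2 held under all 4 scalings. From 38 to 43 of 80 members were lowest there, against 28.3% to 35.6% of all genes.

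**Figure D5:**
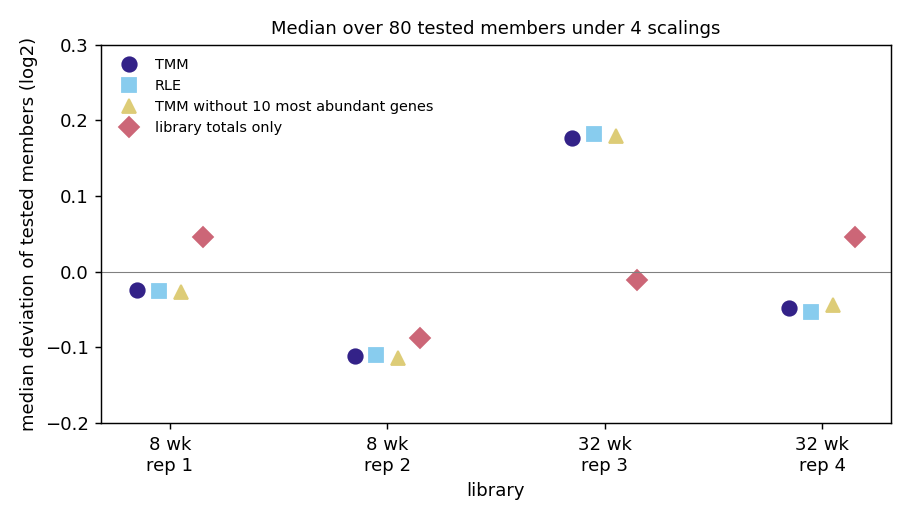
Median deviation (log2) of the 80 tested members in each library under 4 scalings. Replicate 3 lies at 0.18 with TMM and at -0.01 with library totals alone.

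Genes that serve the chain without being part of it had no call either. Of 42 tested assembly factors 21 had estimates above 0 (median 0.01). Cox17, a copper chaperone for complex IV, stood at 58.3 and 53.5 CPM in the 8-week libraries and 69.8 and 69.1 CPM in the 32-week libraries. Of 15 tested regulators 5 were above 0 (median -0.17). Ppargc1a, a coactivator of mitochondrial biogenesis, had 24.0 and 34.5 CPM in the 8-week libraries and 21.4 and 20.5 CPM in the 32-week libraries, with no overlap. Nrf1 had 12.3 and 18.0 CPM against 12.6 and 12.3 CPM, and Gabpa 21.1 and 22.6 CPM against 19.6 and 18.0 CPM. Yy1 was lowest in replicate 2, at 21.6, 8.36, 16.6 and 17.3 CPM in replicates 1 to 4. Cycs, cytochrome c itself, stood at 37.3, 42.9, 39.1 and 34.6 CPM, and Cyc1, the cytochrome c1 of complex III, at 61.4, 55.5, 70.1 and 61.4 CPM.

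Some member symbols carry limits of counting or naming. Another annotated gene overlaps 27 members, among them Atp5j with Gabpa and Ndufb2 with Braf, and their counts could share reads because no strand setting was given in the sources used here. Cox7a2l, which takes part in joining complexes III and IV, and Atp5sl, which is linked to complex I assembly, match the rule by symbol. They stood at 139, 105, 118 and 156 CPM and at 19.3, 20.7, 22.1 and 15.9 CPM in replicates 1 to 4.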

How the data were processed

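RNA was measured in 4 sublingual gland libraries, 2 at each age. Per the labels' protocols, frozen glands were extracted with Trizol and prepared with the Illumina TruSeq RNA kit. Reads were aligned with STAR to mm9, per the submitters' processing notes. Counter, annotation, strand setting and treatment of multiply mapped reads were not given in the sources used here. Whole-number counts per gene symbol were deposited by the authors, with no normalization.

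From these counts, edgeR 4.0.16 in R 4.3.3 gave TMM factors, CPM, log2 fold changes and quasi-likelihood tests with age as the one term, after the default low-count filter by age. P-values were adjusted by Benjamini-Hochberg over 12810 genes at a threshold of 0.05. SE is the absolute log2 fold change divided by the square root of F. Nothing in the labels assigns the libraries to separate animals, and p-values therefore measure only the spread between these libraries, which may be technical. Deviations used a prior count of 2. Transcript length was that of the protein-coding transcript with the longest coding sequence in GENCODE on NCBIM37 (mm9), where all 85 members matched by name. Promoter windows are on GRCm38.p6, another build, and were joined by symbol. The test was checked on simulated counts with known fold changes, for the sign and median size of the estimates. That check did not address changes as small as those of most members.

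The members and all gene lists were chosen with earlier results of these data known. Named members were the highest and lowest per kilobase and the largest positive and negative estimates in each complex. Any at an unadjusted p under 0.05, set catalytic or defining subunits, and isoform pairs were named too. One result under this rule is not reported here. Named outside that rule, after their values were seen, were Ndufa5, Ndufa6, Ndufa9, Sdhd, Uqcr11, Ndufs5, Cox7b2, Cox8c, Cox7a2l, Atp5sl, Atp5c1, Atp5f1, Atp5j and Atp5k, and the genes of the other lists. Alternatives were RLE size factors, library totals, removal of the 10 most abundant genes, all genes with a count, a filter of 1 CPM in 3 libraries, DESeq2 1.42.0, limma-voom 3.58.1 and each library left out. Scalings of the per-library deviations were added after seeing the data.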

Additional observations from a re-analysis of the deposited data

How the results depend on the processing

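No member was called under any alternative that kept all 4 libraries. Few genes were called there at all, from 0 of 12810 with RLE size factors to 10 of 12810 with library totals only. At an unadjusted p under 0.05 there were 16 of 81 members (19.8%) without replicate 1, against 21.7% of all genes, and 0 or 1 members under every other alternative. Estimates were above 0 for 58 of 80 tested members, for 49 of 80 with library totals only, and for 40 of 81 without replicate 3 to 67 of 81 without replicate 4. Leaving out 1 library at a time, where the lone library of an age is assumed to vary like the other pair, moved the median log2 fold change from -0.00063 (without replicate 3) to 0.25 (without replicate 4) over all members. The range was 0.011 to 0.27 for complex I, -0.33 (without replicate 1) to 0.13 (without replicate 2) for complex II, 0.072 to 0.27 for complex III, 0.039 to 0.25 for complex IV and -0.0089 to 0.23 for complex V. Among 338 alternative values of 31 tested named members, 25 in 17 members changed sign and the other 313 did not. With library totals only, the median over all genes moved from -0.01 to -0.10, and Atp5s (-0.052), Uqcrfs1 (-0.069), Atp5b (-0.010) and Atp5g1 (-0.067) changed sign with it, each still 0.027 to 0.086 above that median. Over the fits that each drop 1 library, Ndufa4l2 went from -1.18 to 0.46 and Ndufv1 from -0.30 to 0.15. The estimate ran from -0.82 to 0.25 for Sdha, -0.24 to 0.0091 for Sdhb and -0.18 to 0.0022 for Sdhc. For Uqcrc1 it was -0.44 to 0.36, and for Uqcrfs1 -0.22 to 0.30. In complex IV it was -1.10 to 0.53 for Cox4i2, -0.061 to 0.29 for Cox5a, -0.087 to 0.29 for Cox6a1, -0.044 to 0.29 for Cox6b1 and -0.83 to 0.42 for Cox7a1. In complex V it was -0.33 to 0.033 for Atp5a1, -0.063 to 0.15 for Atp5s, -0.19 to 0.25 for Atp5g1 and -0.24 to 0.17 for Atp5g2. Without a change of sign, Ndufb2 ran from 0.10 (without replicate 2) to 0.68 (without replicate 1), Ndufs1 from -0.63 (without replicate 1) to -0.024 (without replicate 2), Uqcrc2 from -0.32 to -0.079, Uqcrq from 0.090 to 0.49, Cox6c from 0.084 to 0.38, Cox4i1 from 0.076 to 0.25, Cox7a2 from 0.039 to 0.30, Atp5e from 0.017 to 0.41, Atp5b from 0.028 to 0.13, Atp5g3 from 0.12 to 0.47 and Ndufa4 from 0.13 to 0.32. The cause of these changes was not tested. With 2 libraries per age, the 95% interval of every tested member but Cox8b includes 0, and at 14 to 31 counts the values of Cox8b carry a large counting error. No paired analysis was possible because the ages share no replicate number.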

Other observations

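Mitochondrial protein import genes had 15 of 20 estimates above 0 (median log2 fold change 0.13). Tomm40, the channel of the outer membrane, had 3.62 and 1.80 CPM in the younger glands and 5.46 and 6.11 CPM in the older ones, an estimate of 1.10 (SE 0.38). Its edgeR p was 0.0210 unadjusted and 0.999 after Benjamini-Hochberg adjustment. Atpif1, which inhibits the reverse action of ATP synthase, stood at 56.3, 72.4, 82.8 and 63.2 CPM in replicates 1 to 4. Slc25a5, an ADP/ATP carrier, was highest in replicate 2, at 395, 654, 485 and 345 CPM.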
